A study of Mus musculus with 6 samples.

Results

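The mouse odorant receptor genes, named Olfr, were measured in whole testis by 962 probes for 916 gene names on an Agilent single-colour expression array. The probes described here are the 147 Olfr probes, for 142 genes, whose spots were well above background on all 3 wild-type arrays. "Well above background" is the scanner software's own flag for a spot whose signal clearly exceeds the local background. Probes in 3 windows, on chromosome 6 at 35 to 46 Mb, chromosome 2 at 115 to 125 Mb and chromosome 8 at 85 to 95 Mb of the mm9 genome build, were left out by the same rule. These windows held 21 Olfr probes, of which 5, all on chromosome 6, would have met the detection rule. The members were thus selected on measured wild-type values, so their wild-type detection is a description, and a comparison of knockout with wild type over them starts from a choice that favours probes with higher wild-type signals.

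The study compared testes of Prss37 knockout mice with those of wild-type mice, both on a C57BL/6 background, male and 6 to 8 weeks old, with 3 mice per genotype and 1 array per mouse. Prss37, a gene expressed in testis, encodes a member of the trypsin family of serine proteases, and its enzyme activity was not examined. The labels name the knockout allele no further, and which part of the gene was deleted is not given there. The knockout samples are described as Prss55 knockouts in 1 label field and as Prss37 knockouts in title and source, and the titles were used for grouping. Replicates 1 and 2 of each genotype shared 1 slide and replicate 3 of each genotype lay on the other. Leaving out controls, an array had 43379 spots and 41174 probes, and between 69.2% and 71.4% of the spots were well above background and 0 saturated. The Prss37 probe gave 69429.2, 70753.2 and 70250.3 units of processed signal in knockout testes and 116041.8, 105832.7 and 131284.0 in wild-type testes, without overlap. It remained well above background in all 3 knockout mice, and whether it lies in the deleted part is unknown. The Prss55 probe gave 51588.4 to 53195.8 in knockout and 52237.6 to 70800.2 in wild-type testes. Every marker tried for spermatids (12 of 12), spermatocytes (9 of 9) and Sertoli cells (9 of 9) was well above background in all wild-type testes. In a whole organ, fewer cells of a type and less RNA per cell cannot be told apart.

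Odorant receptors are G protein-coupled receptors with a single coding exon in most cases, and they form the largest gene family of the mouse genome. Their genes lie in clusters on many chromosomes, and each olfactory sensory neuron expresses 1 of them from 1 allele. A bound odorant acts through the G protein subunit encoded by Gnal, adenylyl cyclase and a cyclic nucleotide-gated channel. Transcripts of some odorant receptors are also known from testis, where a few have been studied as chemoreceptors of sperm. Closely related receptors share long stretches of sequence, which matters for a hybridisation probe of 60 bases.

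The probe sequences of the members on which the results turn are given first, 5′ to 3′ as in the deposited files. Capitals mark the longest run of bases that a probe shares with an array probe for another Olfr gene. Over the 147 members this run had a median of 12 bases and a maximum of 42 bases, and 8 members had a run of 20 or more. The first pair are the only members called higher in the knockout. The Olfr27 probe lies on mm9 at chr9:38952445-38952504, plus strand, and the Olfr242 probe has no position in the files.
Olfr27: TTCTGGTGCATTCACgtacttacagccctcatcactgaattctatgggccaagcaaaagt
Olfr242: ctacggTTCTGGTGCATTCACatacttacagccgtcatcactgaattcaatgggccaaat
Shifted by 6 bases, these probes overlapped over 54 positions and were identical at 49 of them (90.7%). The next probes are the members called lower, Olfr1444 at chr19:12936818-12936877, plus strand, and Olfr303 at chr7:93543166-93543225, minus strand. They are followed by Olfr1362 at chr13:21703662-21703721, minus strand, the 1 member that was well above background on none of the knockout arrays, and by Olfr569 at chr7:110036344-110036403, minus strand, the member with the largest fitted difference.
Olfr1444: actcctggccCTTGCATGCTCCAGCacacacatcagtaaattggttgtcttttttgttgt
Olfr303: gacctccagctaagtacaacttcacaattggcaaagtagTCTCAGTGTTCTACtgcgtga
Olfr1362: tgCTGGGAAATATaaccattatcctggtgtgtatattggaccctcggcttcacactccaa
Olfr569: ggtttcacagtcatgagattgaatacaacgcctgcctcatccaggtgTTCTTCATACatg
The last set are bright probes of the chromosome 17 cluster described below. The files list accessions of several receptor genes for the last 3 of them: Olfr126, Olfr113, Olfr114 and Olfr128 for the Olfr126 probe, Olfr126, Olfr127 and Olfr128 for the Olfr127 probe, and Olfr112 and Olfr761 for the Olfr761 probe. They lie at chr17:37726523-37726582, minus strand (Olfr114), chr17:37987671-37987730, plus strand (Olfr126), chr17:38041315-38041374, plus strand (Olfr127), and chr17:38089664-38089723, minus strand (Olfr761).
Olfr114: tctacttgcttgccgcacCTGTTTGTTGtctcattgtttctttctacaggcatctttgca
Olfr126: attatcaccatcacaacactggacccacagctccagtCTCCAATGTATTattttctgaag
Olfr127: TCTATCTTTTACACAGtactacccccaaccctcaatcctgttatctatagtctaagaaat
Olfr761: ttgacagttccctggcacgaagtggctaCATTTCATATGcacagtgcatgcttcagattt

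Most odorant receptor probes were not well above background in testis. By the scanner's weaker flag for a positive and significant signal, 321 Olfr probes would have met the rule. The 147 members were 15.3% of the Olfr probes, whereas 69.1% of the other probes on the array were well above background on all 3 wild-type arrays. Of the 941 Olfr probes outside the windows, 663 were well above background on none of the 6 arrays. By array, the Olfr probes well above background numbered 175, 197 and 217 in wild-type replicates 1, 2 and 3 and 173, 179 and 186 in knockout replicates 1, 2 and 3. The number was highest on the slide 2 array of both genotypes, and the ranges of the genotypes overlapped.

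Detection in the knockout testes was not used to choose the members. Of the 147 members, 125 (85.0%) were well above background on all 3 knockout arrays, 15 on 2, 6 on 1 and 1, Olfr1362, on none. All 22 members that were not detected on every knockout array had a mean wild-type signal under 100 units. By the reverse choice, 132 Olfr probes were well above background on all 3 knockout arrays, and 125 of them (94.7%) were members. The remaining 7 were Olfr123, Olfr918, Olfr406, Olfr787, Olfr1148, Olfr700 and Olfr788. Being chosen as detected in the knockout and not in every wild-type mouse, they favour positive differences, which are given as a description with no test. Among these the largest differences, on the log2 scale and knockout minus wild type, were 1.16 for Olfr406, 0.90 for Olfr1148 and 0.73 for Olfr787. Olfr406 gave 35.8, 46.1 and 153.5 units in knockout and 23.1, 27.5 and 37.9 in wild-type testes, so that its difference rested mostly on knockout replicate 3.

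The detected receptors were spread over the genome. The 146 members with a position lay on 16 chromosomes and in 36 of the 49 Olfr clusters, a cluster being Olfr probes less than 1 Mb apart. The 49 include clusters of chromosomes 6 and 8 that lie wholly in the windows left out and could hold no member. Chromosomes 7 and 2, which carry the most Olfr probes, held 36 members of 206 probes (17.5%) and 27 of 246. On chromosome 11 members made up 20 of 65 probes (30.8%) and on chromosome 10 only 3 of 59 (5.08%). Among clusters of 10 or more probes, the share of members was highest in the last cluster of chromosome 7, with 7 of 15, and in that of chromosome 13, with 5 of 11. The cluster with the most members, on chromosome 2 (chr2:85171954-90241494), had 21 of 187. Probes of the members had a median GC content of 45% (quartiles 40% and 45%), against 40% (quartiles 36.67% and 43.33%) for the other Olfr probes. GC content affects how brightly a probe hybridises, and its part in detection was not tested.

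**Figure D1:**
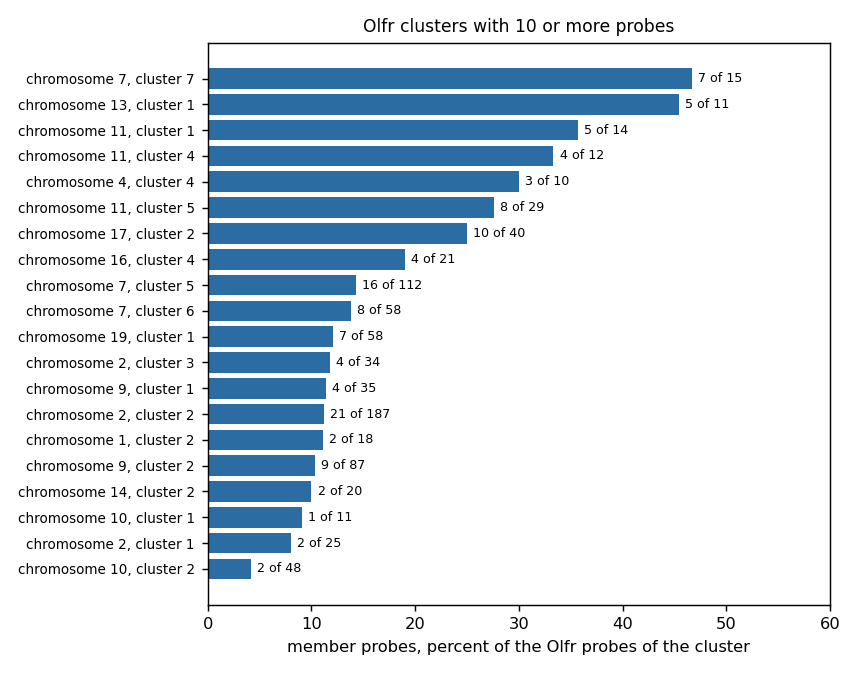
Share of the Olfr probes of each cluster that were members, in percent, for the clusters of 10 or more probes outside the windows; clusters are numbered along each chromosome and the text at each bar gives member probes of all Olfr probes. The share was highest in chromosome 7 cluster 7 (7 of 15) and chromosome 13 cluster 1 (5 of 11), and the cluster with the most probes, chromosome 2 cluster 2, had 21 of 187.

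Members were dim as a group. Their mean wild-type processed signal ran from 41.3 to 2613 units with a median of 92.5. Under 100 units lay 82 members, from 100 to 500 units 52, and at 500 units or above 13. Of all tested probes detected in every wild-type mouse, 3764, 7914 and 16260 lay in these ranges. The 75th percentile of an array's signals, to which the arrays were scaled, lay between 1556.5 and 1711.1. Brightness differs between probes for reasons of sequence, so it orders the probes for display and not the transcripts by abundance. By this order the 10 brightest were Olfr571, Olfr114, Olfr127, Olfr112, Olfr279, Olfr761, Olfr183, Olfr126, Olfr744 and Olfr124. The Olfr571 probe, in the chromosome 7 cluster at chr7:109632942-112517423, gave 2313.7, 2628.8 and 2895.8 units in wild-type and 2269.8, 2661.4 and 2931.7 in knockout testes. In both genotypes replicate 1 was lowest and replicate 3 highest, and the groups overlapped almost entirely (log2 difference 0.03, SE 0.13, limma adjusted p = 0.91). Olfr279, beside the milk protein gene Lalba in RefSeq's gene order, gave 1089.7, 1037.0 and 1194.7 units in wild-type and 1050.0, 1046.8 and 1129.4 in knockout testes. Its log2 difference was -0.01 (SE 0.06). Olfr183 and Olfr744 had log2 differences of 0.01 and 0.02 with SEs of 0.06.

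Of the 13 members with a mean wild-type signal of at least 500 units, 6 lay in the cluster at chr17:37222226-38472904. This cluster held 10 members among 40 probes. Its Olfr114 probe gave 1847.1, 1687.2 and 1953.9 units in wild-type and 2006.2, 1934.0 and 1999.0 in knockout testes, and its log2 difference was 0.15 (SE 0.05, limma adjusted p = 0.15). The Olfr761 probe gave 842.7, 867.3 and 938.0 units in wild-type and 1029.1, 917.5 and 947.0 in knockout testes. For both probes wild-type replicate 3 exceeded knockout replicate 2 as printed, and after scaling all knockout values lay above all wild-type values. The Olfr761 difference was 0.16 (SE 0.04, adjusted p = 0.12). The Olfr127 probe had a difference of 0.17 (SE 0.06), Olfr112 of 0.12 (SE 0.07), Olfr126 of 0.10 (SE 0.05) and Olfr124 of 0.00 (SE 0.05). Altogether 8 members of the cluster had a difference above 0 and 2, the dim Olfr103 and Olfr93, one below 0, with a median of 0.13, and none passed the test. By the accession lists given above several of these probes are assigned to the same genes, so they are not separate measurements.

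**Figure D2:**
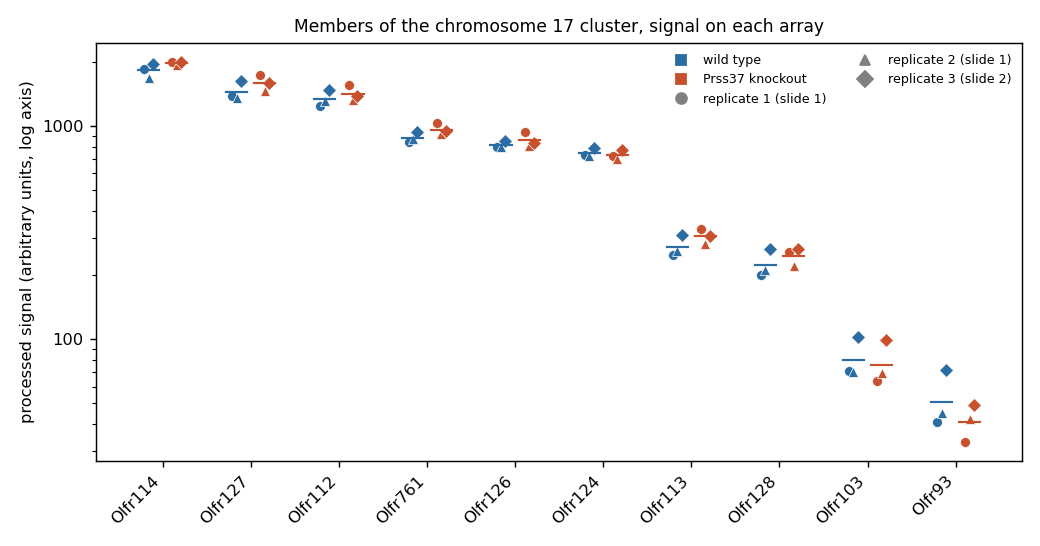
Processed signal (arbitrary units, log axis) of the 10 members of the chromosome 17 cluster on each of the 6 arrays, wild type in blue and knockout in red, marker shape for the replicate and a line for the geometric mean; signals of different probes are not comparable as transcript levels. The unscaled knockout mean is slightly above the wild-type mean for 7 probes (Olfr114 lies between 1687.2 and 1953.9 in wild type and between 1934.0 and 2006.2 in knockout) and slightly below it for Olfr124, Olfr103 and Olfr93.

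Knockout was compared with wild type for each of 28301 probes with limma, on log2 processed signal scaled to each array's 75th percentile, with p-values adjusted over all of these by the Benjamini-Hochberg method. All 147 members were tested. At an adjusted p under 0.05, 2 members were higher in the knockout and 2 lower, beside a background of 0.445% of all tested probes called higher and 0.565% called lower. At an unadjusted p under 0.05, 16 were higher and 18 lower. The share of all tested probes at that unadjusted p is not given here. These counts, and the unadjusted counts given below, therefore have no background and are a description. Members whose 3 knockout values all lay above or all below the 3 wild-type values numbered 16 and 16, where 14.5% and 15.8% of all tested probes did so. Because the members were chosen on wild-type values of the same arrays, nothing is read from these shares.

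Olfr242 and Olfr27 were the members called higher. The Olfr27 probe gave 156.9, 175.8 and 175.6 units in knockout testes and 89.3, 95.5 and 118.8 in wild-type testes. All knockout values exceeded all wild-type values, and the log2 difference was 0.78 (SE 0.11, limma adjusted p = 0.047), or 1.72-fold. The Olfr242 probe gave 78.6, 67.5 and 78.7 units in knockout and 38.4, 46.5 and 48.6 in wild-type testes, again without overlap; the difference was 0.79 (SE 0.10, adjusted p = 0.039), also 1.72-fold. Taking slide 1 and slide 2 apart, Olfr27 differed by 0.84 and 0.66 and Olfr242 by 0.78 and 0.79. Both lost the call in a limma fit blocked by slide (adjusted p = 0.062 and 0.061). That fit called 10 of all tested probes higher and 21 lower, where the fit without the block called 126 and 160. Since the probes printed above are identical at 49 of 54 overlapping positions, they share sequence and are not a pair of independent rises; whether both bind 1 transcript was not tested. Olfr27 is placed on chromosome 9 between receptor pseudogenes Olfr941-ps1 and Olfr942-ps1 in RefSeq's order.

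Olfr1444 and Olfr303 were the members called lower. The Olfr1444 probe gave 149.9, 134.8 and 137.2 units in knockout testes and 202.6, 230.7 and 229.8 in wild-type testes, without overlap. Its log2 difference was -0.62 (SE 0.06, limma adjusted p = 0.034), a 1.54-fold lower level, and it was of like size on slide 1 (-0.61) and slide 2 (-0.65). The Olfr303 probe gave 225.7, 211.4 and 226.1 units in knockout and 309.3, 319.6 and 303.3 in wild-type testes. These groups did not overlap either. The log2 difference was -0.46 (SE 0.06, limma adjusted p = 0.040), a 1.38-fold lower level, with -0.53 and -0.33 within slides 1 and 2. In the slide-blocked fit Olfr1444 had an adjusted p of 0.061 and Olfr303 one of 0.072. With normexp background correction all 4 kept their call at smaller differences, 0.51 for Olfr27, 0.40 for Olfr242, -0.42 for Olfr1444 and -0.30 for Olfr303. None of the 4 calls held when any 1 knockout array or wild-type replicate 1 was left out of the limma fit, which then called 0 members; between 9 and 13 members were then higher and 14 to 26 lower at an unadjusted p under 0.05. Without wild-type replicate 2, Olfr27 lost its call (adjusted p = 0.058), and without wild-type replicate 3 Olfr242 did (0.0503), while the other 3 kept theirs each time. How many of all tested probes kept a call with an array left out is not given here.

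**Figure D3:**
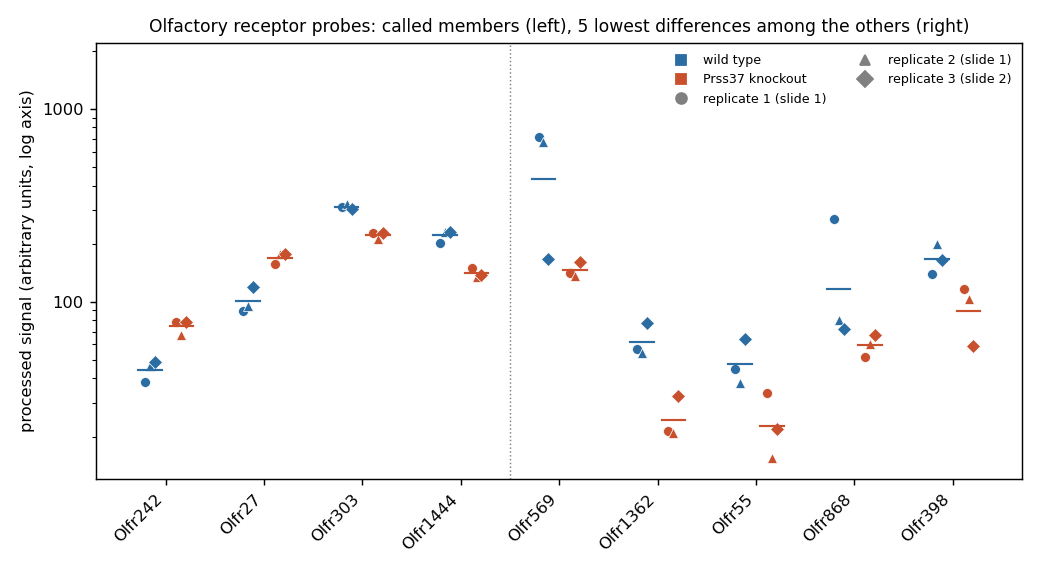
Processed signal (arbitrary units, log axis) on each array for the 4 called members (left of the dotted line) and for the 5 other members with the lowest knockout minus wild-type differences (right), with a line for the geometric mean of each genotype. The genotypes do not overlap for the called members, while for Olfr569 wild-type replicate 3 (167.1 units) lies beside the knockout values and the other wild-type values are 716.4 and 673.0.

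The largest fitted differences among the members were of another kind. The Olfr569 probe gave 716.4 and 673.0 units in wild-type replicates 1 and 2 but 167.1 in wild-type replicate 3, and 140.7, 136.3 and 160.4 in knockout testes. Its log2 difference was -1.54 (SE 0.58, limma adjusted p = 0.19), made up of -2.33 within slide 1 and 0.04 within slide 2. Without wild-type replicate 3 it was -2.25 (adjusted p = 0.0038) and on slide 1 alone the adjusted p was 0.0065, so that 1 wild-type mouse decided the call. Olfr868 had a single high value, 269.3 units in wild-type replicate 1, beside 80 and 72.1 in the other wild-type mice. Its knockout values were 51.8, 60 and 67.2 units, without overlap (log2 difference -0.93, SE 0.52, limma adjusted p = 0.34). For Olfr398 the values were 139.2, 200.2 and 163.7 units in wild-type and 116.4, 103.5 and 58.6 in knockout testes, without overlap (-0.87, SE 0.28, adjusted p = 0.15). The chromosome 17 receptor Olfr55, whose probe also lists Olfr239 and Olfr1564, was well above background on 1 knockout array and had a difference of -1.05 (SE 0.29, adjusted p = 0.11), or -0.24 with normexp.

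Olfr1362 lay closest to the threshold of those left uncalled. Its probe gave 57.0, 54.3 and 77.4 units in wild-type testes and 21.3, 20.9 and 32.3 in knockout testes, none of which reached well above background. The genotypes did not overlap. Against the lowest signal that counted as well above background on each knockout array, the wild-type level was at least 1.91-fold higher. This bound takes the wild-type mean over 3 arrays against the mean, per knockout array, of the higher of that lowest signal and the probe's own. The bound holds for the processed signal; with normexp background correction the log2 difference was -0.41, a smaller size than the bound, with a limma adjusted p of 0.024. The fitted log2 difference was -1.32 (SE 0.20), with -1.40 within slide 1 and -1.16 within slide 2. Its limma adjusted p of 0.052 missed the threshold. It was 0.020 in the slide-blocked fit, where Olfr1362 was the 1 member called, and 0.044 when 1 probe represented each gene. Across the alternatives it ranged from 0.020 to 0.18. Its chromosome 13 cluster held 5 members, all with differences below 0 and a median of -0.29. These include Olfr1362 itself and a pair of overlapping Olfr1359 probes, and 108 of all 147 members had a difference below 0. Olfr1362 was 1 of 8 members with an adjusted p from 0.05 to 0.1, the others being Olfr39, Olfr1339, Olfr701, Olfr1218, Olfr693, Olfr643 and Olfr705, named here after their values were seen.

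On the positive side the probes after Olfr242 and Olfr27 were Olfr701, Olfr401, Olfr46 and others with smaller differences, none called. The Olfr701 probe with the larger difference gave 264.0, 243.2 and 252.6 units in knockout and 175.1, 187.1 and 140.6 in wild-type testes, without overlap (log2 difference 0.64, SE 0.13, limma adjusted p = 0.070). A further Olfr701 probe gave 355.1, 473.9 and 311.9 units in knockout and 256.7, 266.1 and 329.1 in wild-type testes, where replicate 3 of the wild type exceeded replicate 3 of the knockout before scaling (0.44, SE 0.18, adjusted p = 0.22). Olfr401 had a single high value, 147.5 units in knockout replicate 1, beside 43.0 and 71.4 in the other knockout mice and 44.8, 49.6 and 62.3 in the wild type. Olfr46 gave 59.6, 71.3 and 75.7 units in knockout and 56.5, 55.0 and 38.3 in wild-type testes (0.51, SE 0.20, adjusted p = 0.21), and its probe also lists Olfr538 and Olfr60.

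Over all 147 members, 108 differences lay below 0 and 39 above, with a median of -0.12 (quartiles -0.31 and 0.01), beside a median of -0.004 over all tested probes. This median is a description, since detection in wild type chose the probes. Among the 132 Olfr probes chosen on knockout detection the median was -0.08 with 86 below 0, and among the 125 detected on all 6 arrays it was -0.09, also with 86 below 0. The median depended on single mice: leaving out knockout replicate 1 or 3 gave -0.04 or -0.23, and leaving out wild-type replicate 1 or 3 gave -0.21 or -0.03. The members' median level, in log2 relative to the array's 75th percentile, was -4.30 and -4.25 in wild-type and -4.36 and -4.36 in knockout replicates 1 and 2 (slide 1), and -3.98 in wild-type and -4.08 in knockout replicate 3 (slide 2). Knockout thus lay below wild type within each slide, and slide 2 above slide 1 by more than that. With another background correction (normexp) the median was -0.03.

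**Figure D4:**
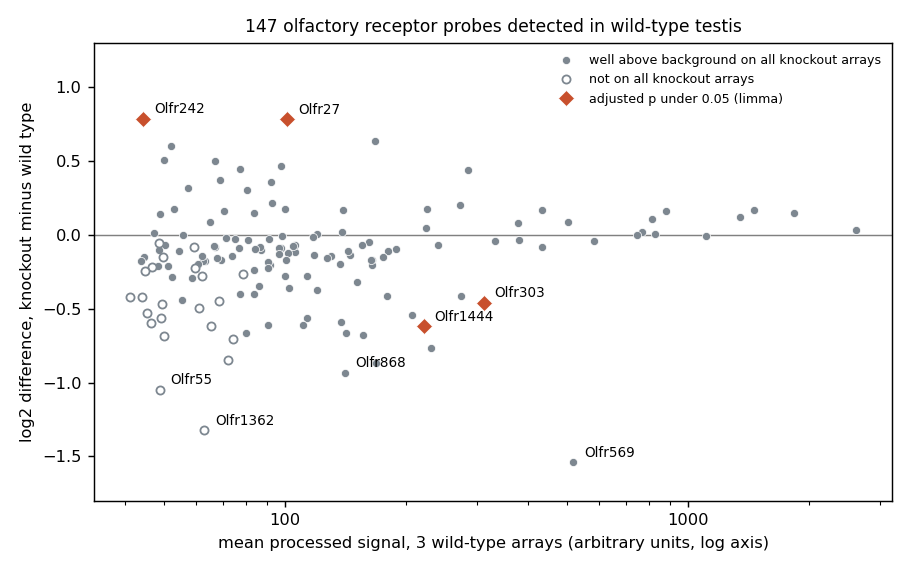
Log2 difference, knockout minus wild type, of each of the 147 members against its mean wild-type processed signal (arbitrary units, log axis), with called members as red diamonds and members not detected on all knockout arrays as open circles. Apart from Olfr569 the spread narrows with signal, and the median difference is -0.15 for the 82 members under 100 units, -0.14 for the 52 from 100 to 500, and 0.03 for the 13 at 500 and above.

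The differences were not alike at every brightness. The 82 members with a mean wild-type signal under 100 units had a median difference of -0.15 and the 52 between 100 and 500 units one of -0.14. All probes on the array that were detected in every wild-type mouse had medians of -0.03 and -0.02 in these ranges. The 13 brightest members had a median of 0.03, with a range from -1.54 (Olfr569) to 0.17 (Olfr127), beside 0.003 for all such probes. Of the 13 brightest members, 6 lay in the chromosome 17 cluster, where several probes are assigned to the same genes.

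The members' signals differed by slide in both genotypes. The median processed signal of the members was 82.2 and 83.8 units in wild-type replicates 1 and 2 and 108.7 in replicate 3, and 81.4 and 75.7 in knockout replicates 1 and 2 and 94.4 in replicate 3. Replicate 3 of each genotype, on slide 2, was the brightest of its group. Within slide 1 the median knockout minus wild-type difference was -0.12 with 108 members below 0, and within slide 2, with 1 mouse per genotype, it was -0.06 with 86 below 0. The sign was the same on both slides for 103 members.

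**Figure D5:**
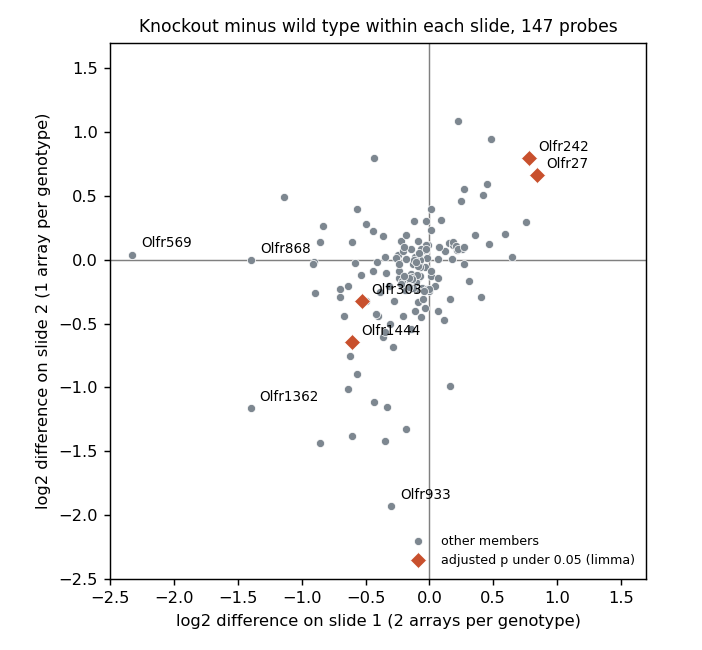
Log2 difference, knockout minus wild type, within slide 1 (2 arrays per genotype, horizontal axis) and within slide 2 (1 array per genotype, vertical axis) for the 147 members, with the 4 called members as red diamonds. Called members lie near the diagonal, Olfr569 is at -2.33 on slide 1 and 0.04 on slide 2, and Olfr933 is at -0.30 and -1.93.

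Where a gene had several probes, these did not always give the same picture. The 5 genes with a pair of member probes were Olfr166, Olfr1359, Olfr1372-ps1, Olfr701 and Olfr1393. For Olfr1359 the differences were -0.12 (SE 0.15) and -0.09 (SE 0.14). These probes overlap, at chr13:21795491-21795550 and chr13:21795470-21795529, so they are not separate measurements and their likeness says little. For the transcribed pseudogene Olfr1372-ps1 the differences were -0.08 (SE 0.07) and -0.02 (SE 0.14), apart by less than their errors. For Olfr166 they were -0.07 (SE 0.10) and -0.34 (SE 0.30). In 3 other member genes a second probe was no member: that of Olfr279 was well above background on 1 wild-type array and no knockout array, and those of Olfr175-ps1 and Olfr1497 on none. The second Olfr279 probe gave a mean of 18.9 units over the wild-type arrays, the second Olfr175-ps1 probe 6.80 and the second Olfr1497 probe 6.43, where their member probes gave 1107, 584 and 179. Which transcript part each probe reads was not examined, and detection by 1 probe is therefore no measure of a whole receptor transcript.

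Sequence sharing touched more members than the first pair. The files list accessions of several receptor genes for 23 member probes, of 1 gene for 121 and of none for 3. Ungapped overlaps of at least 40 bases with at least 80% identity to a probe for another Olfr gene were found for 19 members, and 5 such overlaps joined a pair of members. Olfr530 and Olfr536 were identical at 54 of 60 positions. The Olfr530 probe gave 49.9, 52.4 and 36.7 units in wild-type and 16.7, 32.5 and 48.2 in knockout testes, and the Olfr536 probe 37.4, 54.7 and 61.6 against 40.1, 37.7 and 50.4, with overlapping groups in both. Olfr705 and Olfr706, identical at 41 of 49 positions and adjacent on chromosome 7, had differences of 0.31 (SE 0.07, limma adjusted p = 0.083) and 0.21 (SE 0.11, adjusted p = 0.31). With members restricted to the 124 whose probe names at most 1 gene, 2 were called higher and 2 lower. All called members are among these 124, so the restriction could not change the calls. It also keeps both Olfr27 and Olfr242, whose probes share sequence.

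At the edge of the rule, the dimmest members were Olfr703, Olfr139 and Olfr1507, with mean wild-type signals of 41.3, 44.0 and 44.2 units. The brightest Olfr probes left out, because 1 of the 3 wild-type arrays did not detect them, were Olfr1395, Olfr870 and Olfr1437, with 63.1, 57.9 and 54.4 units. In all, 31 Olfr probes outside the windows were detected on 2 of 3 wild-type arrays.

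Receptors with a described role outside the nose were mostly not among the members. Of 12 such genes on the array, Olfr544, known as a receptor for azelaic acid in metabolic tissues, and Olfr1393, known from the kidney tubule, were detected in all wild-type testes. Olfr544 gave 161.0, 270.9 and 187.4 units in wild-type and 141.3, 117.5 and 149.1 in knockout testes, without overlap, with a log2 difference of -0.54 (SE 0.21) that did not pass the test (limma adjusted p = 0.20). The brighter Olfr1393 probe gave 476.4, 492.5 and 541.9 units in wild-type and 501.6, 522.7 and 542.1 in knockout testes (0.08, SE 0.06). It also lists Olfr10 and Olfr1392; the Olfr1393 probe that lists no other gene had a difference of 0.17 (SE 0.05, adjusted p = 0.13). Probes for Olfr16, the receptor studied in sperm chemotaxis, and for Olfr78, Olfr558, Olfr90, Olfr49, Olfr31, Olfr1386 and Olfr480 were well above background on none of the 6 arrays. Olfr15 was detected on 2 wild-type arrays and Olfr603 on 1, and neither on a knockout array. A probe at background does not show that its transcript is missing.

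Transduction genes were detected in testis more widely than the receptors. Of 21 olfactory transduction genes on the array, 19 were well above background on all wild-type arrays and 20 were tested, of which 1 rose and 1 fell. Gnal, the stimulatory G protein subunit that couples odorant receptors to adenylyl cyclase, gave 351.1, 318.0 and 333.2 units in knockout and 488.5, 418.9 and 533.3 in wild-type testes. All its knockout values lay below the wild-type values, and its log2 difference was -0.49 (SE 0.07, limma adjusted p = 0.049; 0.074 when blocked by slide). Pde4a, a phosphodiesterase that degrades cyclic AMP, gave 7436.6, 6596.7 and 6807.9 units in knockout and 5310.5, 5645.9 and 5921.2 in wild-type testes. Its groups did not overlap, and the log2 difference was 0.34 (SE 0.05, adjusted p = 0.049; 0.075 when blocked by slide). The channel subunit gene Cnga2 had a difference of -0.31 (adjusted p = 0.10) and Cngb1 one of 0.02 (adjusted p = 0.81). Adcy3, the adenylyl cyclase of the olfactory cilia, was detected on 2 of 3 arrays of each genotype and was not tested.

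Genes for receptor choice and trafficking gave 0 calls among 14 tested in limma, with 2 higher and 1 lower at an unadjusted p under 0.05 and a median difference of 0.05. Rtp1 and Rtp2, whose proteins carry odorant receptors to the cell surface in sensory neurons, were well above background on 1 and on none of the wild-type arrays and on none of the knockout arrays. Rtp3 and Rtp4 were well above background on all 3 arrays of each genotype. Reep6 and Reep1, from the same list, were bright in testis. Reep6 gave 114939.8, 115299.5 and 148965.1 units in wild-type and 138426.3, 135210.6 and 146016.7 in knockout testes, with overlap (0.19, SE 0.09, adjusted p = 0.29).

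Olfactory epithelium markers were largely undetected. Of 11 examined, 4 were well above background on all wild-type arrays, namely Gng8, Umodl1, Cbr2 and Neurog1. Omp, which marks mature sensory neurons, was detected on 2 wild-type arrays and no knockout array, S100a5, Stoml3 and Ncam2 on 1 and none, and Gap43, Cyp2g1 and Obp1a on none. The summed signal of the 4 detected markers ran from 4194 to 5269 units in wild-type and from 5126 to 5680 in knockout testes. Most of it came from Cbr2, with 2848.7 to 3782.6 units in wild-type and 3645.8 to 4157.9 in knockout testes. The differences of 3 markers lay above 0 and that of Neurog1 below (-0.41). Of the 4, 0 were called by limma (2 higher and 1 lower at an unadjusted p under 0.05).

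Among other chemosensory families, 32 of 139 vomeronasal receptor genes were detected on all wild-type arrays. Of the 33 tested, 0 were called by limma, with 5 higher and 7 lower at an unadjusted p under 0.05, 23 differences below 0 and a median of -0.12. In the taste receptor family 3 of 16 genes were detected (Tas1r1, Tas1r3 and Tas2r118), and 0 of 4 in each of the trace amine and formyl peptide receptor families. Markers of other testis cell types gave few calls. None of 7 spermatogonial, 9 spermatocyte, 12 spermatid, 9 Sertoli, 7 Leydig, 5 peritubular, 9 macrophage, 5 endothelial and 2 epididymal markers tested was called by limma. At an unadjusted p under 0.05 these lists had 0, 1, 2, 2, 0, 0, 5, 0 and 0 members higher and 3, 3, 1, 3, 1, 1, 0, 0 and 0 lower. All 9 macrophage markers had differences above 0, with a median of 0.23 and a summed signal from 15928 to 21907 units in wild-type and from 21172 to 25538 in knockout testes. Lymphocyte markers had 1 higher (Ms4a1) and 1 lower (Cd8b1) of 6, with 3 differences on each side of 0. Erythroid markers had 1 higher (Alas2) of 4, while the other differences lay below 0 and the list's median was -0.17. Adipocyte markers had 1 lower (Cidea) of 4, with 1 difference above 0 and 3 below. Blocked by slide, the limma adjusted p was 0.066 for Ms4a1, 0.061 for Cd8b1 and 0.074 for both Alas2 and Cidea. The part of these cell types in the receptor differences was not tested.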

How the data were processed

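The submitters deposited the scanner file of each array, whose header names Agilent Feature Extraction 10.7.3.1 (10.7 in the submitters' processing notes). Its intensity column, the processed signal, already had background removed, per the file headers. The log2 table deposited by the submitters (column medians 7.725, correlation with log2 processed signal from 0.99987 to 0.99998 across probes, scale and centring otherwise unstated) was an alternative. Flags, mm9 positions and probe sequences are other columns used as deposited.

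Controls and spots flagged as feature outliers (86 to 159 per array) were dropped. From the log2 processed signal the 75th percentile of the array was subtracted, and replicate spots were averaged. Tested probes had every unflagged spot well above background in at least 1 genotype and at least 2 values in both. The fit used limma 3.58.1 in R 4.3.3 (lmFit, eBayes), first tested on simulated data. Each array is 1 mouse per the series' design text, and the number of arrays limits the precision. By accession, 144 members matched RefSeq's GRCm38.p6 gene table, 142 of them with the same symbol; that build served only for names and gene order.

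Members named are those called, the 10 brightest, the 5 largest differences each way, genes with several member probes and receptors with a described role outside the nose. The members and gene lists were chosen with earlier results of these data known. One marker of a list is not reported here. Alternatives covered background correction, scaling, filters, flags, the variance model, blocks, the threshold and each array left out.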

Additional observations from a re-analysis of the deposited data

How the results depend on the processing

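The 2 higher and 2 lower calls among the members were 2 and 3 under normexp, quantile scaling, centring on the median, the submitters' log2 table and 1 probe per gene, and 2 and 2 with flagged spots kept, with detection required on all 6 arrays and with members chosen on knockout detection. They were 0 and 0 in limma without the filter on dim probes (12 and 11 at an unadjusted p under 0.05), 0 and 1 when blocked by slide (16 and 29), 0 and 2 within slide 1 (13 and 25), 3 and 4 with a trended and robust variance, and 6 and 6 at an adjusted p under 0.1. Leaving out 1 array gave from 0 to 2 higher and from 0 to 3 lower calls. Over all tested probes, the slide-blocked fit called 10 higher and 21 lower, where the main fit called 126 and 160. That loss of calls is thus not particular to the members. Totals over all probes are not given for the other alternatives, so their counts are a description. The replicate block gave 0 higher and 0 lower calls (14 and 31 at an unadjusted p under 0.05). Same-numbered arrays deviated from their genotype means with correlations of -0.05, -0.03 and 0.14 over probes. Replicates 1 and 2 correlated best with the other number of the other genotype, and replicate 3 with replicate 3. Deviations within a genotype depend on each other, and replicate 3 of each genotype lay on its own slide. These correlations therefore cannot decide whether the numbers pair the samples. The median difference of the members lay between -0.23 and -0.03 with 1 array left out and between -0.14 and -0.03 otherwise, below 0 in every alternative run. The detection rule gave 321 probes with the scanner's weaker flag for a positive and significant signal in place of the well-above-background flag, 178 with 2 of 3 wild-type arrays, 152 with the windows kept in, and from 150 to 169 with 1 wild-type array left out. The restriction to probes that name at most 1 gene was chosen after seeing the data. No array allows a statement on receptors whose probes stay at background.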

Other observations

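The 5 odorant receptor probes in the chromosome 6 window that met the detection rule, for Olfr441, Olfr434, Olfr456 (a pair of probes) and Olfr446, belong in no comparison above. Olfr441 gave 109.6, 115.1 and 166.1 units in wild-type and 98.0, 95.1 and 167.0 in knockout testes, with overlap. Their log2 differences ran from -0.64 (Olfr434) to -0.11, and none passed limma's test (adjusted p from 0.34 to 0.85).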
